A study of Mus musculus with 2 samples.

Results

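The genes of oxidative phosphorylation described here are the 97 listed genes, of 32285 in the deposited count tables, that encode subunits of the mitochondrial respiratory chain and of ATP synthase. They were chosen by a rule on gene symbols, with earlier results of these data known. Of them 84 lie in the nuclear genome and 13 in the mitochondrial genome, and pseudogene symbols were left out. By symbol, 37 nuclear members belong to complex I, 4 to complex II, 8 to complex III, 18 to complex IV and 17 to complex V, and the mitochondrial genome adds 7, 0, 1, 3 and 2. Ndufa4 and Ndufa4l2 are counted with complex I by symbol, although later work places them in complex IV. Mouse blood was profiled by single-cell RNA sequencing, with 1 library from young mice (2 months) and 1 from old mice (24 months). In both, red cells were lysed and live cells carrying CD45, CD11b and the neutrophil antigen Ly6G were sorted and captured on the BD Rhapsody system. Both libraries are labelled male, no strain, genotype or treatment is given in the labels, and how many animals each library holds is not stated. With 1 library per age there is no replicate and no test between ages: values describe these libraries, and intervals in parentheses are 95% intervals for counting error only.

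The respiratory chain passes electrons from NADH (complex I) and succinate (complex II) through complexes III and IV to oxygen and pumps protons across the inner mitochondrial membrane, and complex V uses that gradient to make ATP. Complex II is encoded by nuclear genes only, whereas the other complexes combine nuclear subunits with a small core made inside the mitochondrion from mitochondrial DNA. Neutrophils are known for living mainly on glycolysis and for holding few mitochondria, while lymphocytes, monocytes and platelets rely more on respiration.

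The young library held 13599 barcodes and 69599479 unique molecular identifiers (UMIs, counted molecules), the old one 14334 and 128826996, with medians of 4246 and 7265.5 UMIs per barcode. Of these, 12921 young and 13517 old barcodes were kept and clustered without the members, and clusters were named from marker genes as neutrophil-like and so on. Neutrophil-like cells numbered 10794 young and 9563 old. The sort also held 8 other classes with at least 20 cells in each library, from 22 young dendritic cell-like to 1207 old classical monocyte-like cells. The libraries shared 53 cell barcodes. Xist, which coats an inactive X chromosome, was read at 160 young and 210 old CPM (UMIs of a gene scaled to a total of 1000000). The Y-linked Ddx3y was read at 19.1 and 7.51 CPM (1329 and 967 UMIs), and the Y-linked Eif2s3y had 0 UMIs in both. So the male label was not borne out by every gene, and Xist and Ddx3y differed between the libraries in opposite directions. Whether the sex of the animals differs between the libraries was not tested.

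In neutrophil-like cells the nuclear and the mitochondrially encoded members differed between the ages in unlike ways. The 84 nuclear members together took 6763 CPM in the young library (6740 to 6786) and 6895 CPM in the old (6877 to 6913), a ratio of 1.02 (1.02 to 1.02). That small difference changed sign, to -0.038 log2 with each cell weighted equally and -0.028 with cells thinned to 1000 UMIs. The 13 mitochondrially encoded members took 2263 CPM in the young library (2250 to 2277) and 7801 CPM in the old (7782 to 7820), a ratio of 3.45 (3.43 to 3.47). Mitochondrially encoded UMIs were thus fewer than nuclear ones in the young library, at 0.335 per nuclear UMI, and more numerous in the old, at 1.13. Per cell, nuclear members gave 30.6 young and 59.0 old UMIs, and mitochondrially encoded members 10.2 and 66.7. The middle neutrophil-like cell had 0.162% of its UMIs from the mitochondrial genome in the young library (quartiles 0.0920% and 0.264%) and 0.645% in the old (0.426% and 0.899%), so the quartile ranges did not overlap.

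The level of a gene in CPM depends on what else fills the library. S100a8 and S100a9, calcium-binding proteins abundant in neutrophils, took 10.7% young and 29.0% old of neutrophil-like UMIs, and the median gene at 50 CPM or more stood at -0.66 on the log2 scale in old over young. The nuclear sum was at 0.028 log2 and lay 0.69 above that median gene. With both S100 genes left out of the total, the nuclear sum was 0.36 and the mitochondrially encoded sum 2.12 log2 higher in the old library. Malat1, a nuclear RNA, stood at 15525 young and 10648 old CPM, and cytosolic ribosomal protein genes at 3.24% and 2.82%. Their part in the result was not tested.

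All 3 mitochondrially encoded subunits of complex IV, which form its catalytic core, were at least 3.20-fold higher in the old library, counting CPM without any added constant. mt-Co1, chrM:5328-6872 in build GRCm38, which holds the oxygen-reducing centre, had 682 young and 2911 old CPM, a ratio of 4.27 (4.22 to 4.32). mt-Co2 had 344 and 1336 CPM, a ratio of 3.89 (3.82 to 3.95). mt-Co3 had 456 and 1462 CPM, a ratio of 3.20 (3.16 to 3.25). The order among these neighbours was thus mt-Co1, mt-Co2, mt-Co3, and their counting intervals did not overlap.

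The ATP synthase subunit mt-Atp6, part of the proton channel, had 332 young and 1115 old CPM (ratio 3.36, 3.31 to 3.42). Its overlapping neighbour mt-Atp8 had 3.61 and 8.08 CPM (2.24, 1.89 to 2.66). mt-Cytb, the cytochrome b of complex III, had 158 and 378 CPM (2.39, 2.33 to 2.45). Of these only mt-Atp6 reached the range of the complex IV subunits.

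The 7 mitochondrially encoded subunits of complex I, which form its proton-pumping arm, differed among themselves. mt-Nd5 had 24.6 young and 69.2 old CPM (ratio 2.82, 2.65 to 3), and mt-Nd1 49.4 and 124.5 (2.52, 2.41 to 2.64). mt-Nd3 had 19.8 and 42.5 CPM (2.14, 2.00 to 2.30) and mt-Nd4 144.6 and 277.1 (1.92, 1.87 to 1.97). The smallest ratios were those of mt-Nd4l, with 5.27 and 8.22 CPM (1.56, 1.35 to 1.81), and mt-Nd2, with 43.4 and 67.1 CPM (1.54, 1.47 to 1.62). mt-Nd6, the member read from the other strand, had 31 young and 182 old UMIs and averaged under the floor of 5 CPM used for counts below.

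For counts of members, old and young CPM were compared with 1 CPM added to each, genes whose average over both libraries was 5 CPM or more were called measured, and a ratio of 1.5 or more either way was counted. Of all 7214 measured genes, 7.24% were counted higher in the old library and 50.1% lower. Among the mitochondrially encoded members 12 were measured and 11 counted higher, the exception being mt-Nd4l, and 0 lower, with a median of 1.29 log2. Among the nuclear members 75 of 84 were measured: 12 were counted higher, 3 lower and 60 neither, with a median of 0.09 log2 against -0.59 over all measured genes. Relative to the median gene, 50 of the 75 were counted higher and 0 lower, where all genes gave 23.2% and 12.0%. The plot of member ratios by complex shows the nuclear members around 0 and above the median gene, with a few complex I members and the mitochondrially encoded genes standing high.

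**Figure D1:**
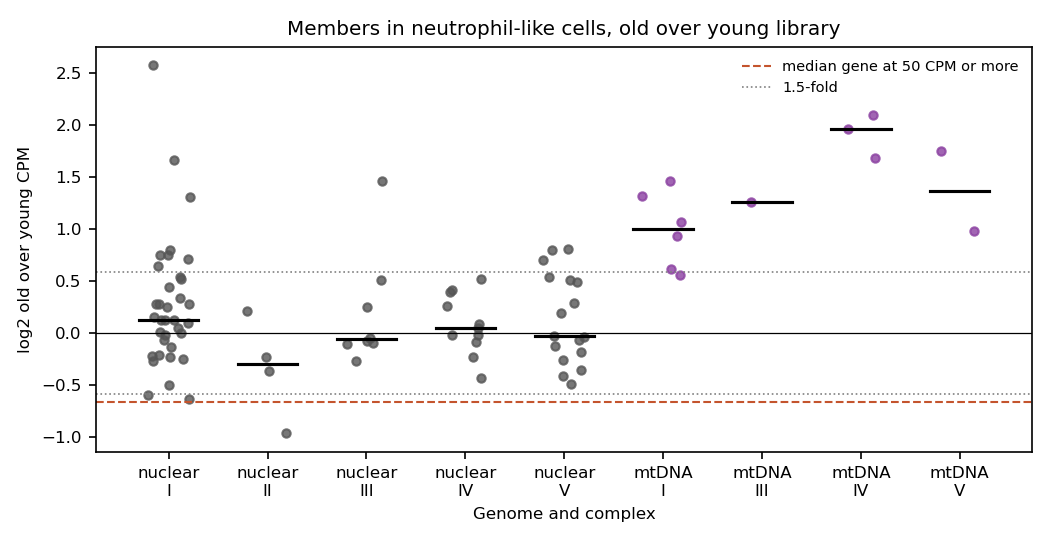
Each point is 1 measured member in neutrophil-like cells, placed by genome and complex (x axis), with the log2 of old over young CPM after adding 1 CPM (y axis). Short black lines are medians, dotted lines 1.5-fold and the dashed line the median gene at -0.66. Mitochondrially encoded members lie between 0.56 and 2.09, and nuclear members between -0.96 and 2.57.

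Some single values are uncertain because reads can belong to more than 1 gene. The last 300 bases of 7 nuclear members (Atp5g2, Atp5h, Atp5o, Cox7c, Ndufb6, Ndufs5 and Uqcrc2) and of 6 mitochondrially encoded ones (mt-Atp6, mt-Co1, mt-Co2, mt-Co3, mt-Nd3 and mt-Nd4l) have a near-identical copy elsewhere among annotated transcripts. The overlapping pairs mt-Atp8 with mt-Atp6, mt-Atp6 with mt-Co3 and mt-Nd4l with mt-Nd4 can share reads.

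Left-out barcodes bear on the mitochondrially encoded members in particular. Those with fewer than 200 genes numbered 660 young and 801 old. Erythroid markers took 96.4% and 93.1% of their UMIs, at medians of 5041 and 2360 UMIs, so they have a red cell profile and are not a measured background. They held 12.2 young and 27.1 old mitochondrially encoded UMIs each, against 10.2 and 66.7 in neutrophil-like cells, so the young neutrophil-like level was no higher than in these barcodes. Every ratio and share above and below that uses the young level carries this limit. Nuclear members gave only 1.69 and 1.99 UMIs in these barcodes, against 30.6 and 59.0 in neutrophil-like cells. The genes were mixed otherwise as well. mt-Co1 made up 24.7% (23.7 to 25.6, exact Clopper-Pearson) of the mitochondrially encoded UMIs in the young left-out barcodes and 18.3% (17.8 to 18.8) in the old, but 30.1% (29.9 to 30.4) and 37.3% (37.2 to 37.4) in neutrophil-like cells. S100a8 gave 1.79 and 8.39 UMIs in these barcodes and 47.7 and 239 in B cell-like cells. How much of either level is free RNA was not tested.

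In complex I, 35 of the 37 nuclear members were measured. Of these, 8 were counted higher and 2 lower in the old library, against 7.24% and 50.1% of all genes. Relative to the median gene, 26 of the 35 were counted higher and 0 lower, against 23.2% and 12.0% of all genes. Ndufa11 (ENSMUSG00000002379), an accessory subunit of the membrane arm at chr17:56717767-56722141, had 4.73 young CPM (231 UMIs) and 33.0 old CPM (2701 UMIs). That ratio of 6.98 (6.10 to 8.01) was the largest of all measured members. Ndufv3, an accessory subunit of the arm that oxidises NADH, had 21.5 and 70.2 CPM (ratio 3.26, 3.05 to 3.49). Ndufc2, a small membrane arm subunit at chr7:97400003-97407802, had 5.23 and 14.4 CPM (2.76, 2.41 to 3.17). Ndufa5, an accessory subunit beside the quinone site, had 51 young and 492 old UMIs, or 1.05 and 6.02 CPM, and was under the floor. Ndufa11, Ndufc2 and Ndufa5 were scarce in young neutrophil-like cells and less so in old ones.

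The other 5 members counted higher, Ndufa9, Ndufa12, Ndufb2, Ndufc1 and Ndufb7, had ratios of 1.57 to 1.92, and 25 of the 35 were counted neither way. Ndufb9, Ndufa13 and Ndufa7, accessory subunits, had the highest CPM of the complex. Ndufa13 had 167.5 young and 168.1 old CPM (1.003, 0.976 to 1.03), and Ndufb9 193.6 and 167.0 (0.863, 0.840 to 0.886). Both members counted lower were Ndufa7, with 188.5 and 124.6 CPM (0.661, 0.643 to 0.680), and Ndufs1, with 35.6 and 22.6 CPM (0.637, 0.596 to 0.680). Ndufs1 is the largest core subunit and carries iron-sulfur clusters. Both came level with the median gene, 0.071 and 0.035 log2 above it.

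Complex II, succinate dehydrogenase, had the lowest ratio of the nuclear sums, with 202 young (198 to 206) and 158 old CPM, although relative to the median gene it stood 0.31 log2 higher. Its ratio was 0.780 (0.760 to 0.801), against 1.08 (1.07 to 1.09) for nuclear complex I, 1.10 (1.08 to 1.11) for III, 0.989 (0.981 to 0.997) for IV and 0.994 (0.986 to 1.002) for V. Sdha, the catalytic flavoprotein at chr13:74322254-74350280, had 83.0 young and 42.1 old CPM (0.507, 0.484 to 0.531), the lowest ratio of all measured members. Sdhc, a membrane anchor, had 12.3 and 9.38 CPM (0.760, 0.682 to 0.847), and Sdhd, the other anchor, 57.0 and 48.5 (0.851, 0.810 to 0.893). Sdhb, the iron-sulfur subunit, went the other way with 49.9 and 57.8 CPM (1.16, 1.10 to 1.22). Only Sdha passed 1.5-fold, where 7.24% of all genes were counted higher and 50.1% lower. Relative to the median gene Sdha lay at -0.30.

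In complex III all 8 nuclear members were measured, with 1 counted higher and 0 lower, against 7.24% and 50.1% of all genes. Relative to the median gene, 4 were counted higher and 0 lower, against 23.2% and 12.0%. The member counted higher in plain CPM was Uqcrb, a ubiquinone-binding subunit, with 16.7 young and 47.6 old CPM (2.85, 2.64 to 3.08). The members with the highest CPM were Uqcrh, the hinge protein that binds cytochrome c1 (197.1 and 235.1 CPM), Uqcrq (106.2 and 100.3) and Uqcr10 (101.4 and 94.0). The smallest ratio belonged to Uqcrc2, a core protein, with 36.9 and 30.6 CPM (0.828, 0.779 to 0.880).

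In complex IV 11 of 18 nuclear members were measured and none passed 1.5-fold either way, against 7.24% and 50.1% of all genes. Cox8a had 547.8 young and 405.4 old CPM (0.740, 0.728 to 0.752), the smallest ratio, and Cox7c 126.1 and 181.3 (1.44, 1.40 to 1.48), the largest. Cox4i1, the regulatory subunit, had 338.6 and 318.4 CPM (0.940, 0.922 to 0.959), and Cox6b1 209.6 and 207.1 (0.988, 0.964 to 1.01). So in CPM over all neutrophil-like cells, the measured nuclear subunits of this complex stayed within 1.5-fold while its mitochondrially encoded core was at least 3.20-fold higher. Relative to the median gene, 8 of the 11 were counted higher and 0 lower, against 23.2% and 12.0% of all genes.

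In complex V all 17 members were measured, 3 counted higher and 0 lower, against 7.24% and 50.1% of all genes. Relative to the median gene, 11 were counted higher and 0 lower, against 23.2% and 12.0%. The highest CPM were those of Atp5l (475.5 young and 397.3 old; 0.835, 0.821 to 0.850), Atp5e (373.4 and 265.0; 0.710, 0.696 to 0.724) and Atp5f1 (169.4 and 207.7; 1.23, 1.19 to 1.26), which encode the g, epsilon and b subunits. Atp5o, the stalk protein that ties the catalytic head to the membrane part, had the largest ratio, with 21.3 and 37.9 CPM (1.78, 1.66 to 1.91). The other members counted higher were Atp5g3, a c-ring gene (18.7 and 33.2 CPM), and Atp5d, the delta subunit (43.1 and 70.8).

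RefSeq promoter windows of 300 bases in GRCm38.p6 (250 before and 50 after the transcript start) were at hand for 67 of the 84 nuclear members, in 75 windows. The members with the largest and the smallest ratio between the ages, Ndufa11 and Sdha, are shown with Ndufc2 and Cox5a, which lead over neutrophil-like cells, by the rank given below, in classical monocyte-like and platelet-like cells. Capitals mark matches, on either strand, to the letters searched: GCATGCGC (NRF1, nuclear respiratory factor 1), TGCGCA (a shorter NRF1 core, which can overlap the first), CCGGAAG (ETS factors such as GABP), AAGATGGC (YY1) and GGGCGG (Sp1).
Ndufa11, chr17:56717512-56717811, plus strand: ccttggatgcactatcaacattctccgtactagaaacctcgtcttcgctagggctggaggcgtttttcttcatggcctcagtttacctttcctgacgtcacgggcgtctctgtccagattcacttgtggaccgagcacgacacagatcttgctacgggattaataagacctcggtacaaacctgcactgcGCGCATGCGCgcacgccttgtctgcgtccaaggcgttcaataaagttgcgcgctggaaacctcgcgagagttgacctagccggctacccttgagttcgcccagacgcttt
Ndufc2, chr7:97399753-97400052, plus strand: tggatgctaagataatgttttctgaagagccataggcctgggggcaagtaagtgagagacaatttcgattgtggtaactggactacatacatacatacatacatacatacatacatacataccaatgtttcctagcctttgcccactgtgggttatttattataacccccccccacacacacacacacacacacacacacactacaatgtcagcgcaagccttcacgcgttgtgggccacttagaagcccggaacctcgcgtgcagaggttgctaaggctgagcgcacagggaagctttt
Sdha, chr13:74350191-74350490, minus strand: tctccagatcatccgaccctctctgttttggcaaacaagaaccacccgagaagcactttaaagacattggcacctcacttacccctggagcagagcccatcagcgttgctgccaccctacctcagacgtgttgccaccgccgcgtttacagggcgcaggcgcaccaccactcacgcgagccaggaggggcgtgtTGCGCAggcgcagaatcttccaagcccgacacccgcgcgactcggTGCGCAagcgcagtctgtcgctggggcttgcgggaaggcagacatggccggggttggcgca
Cox5a, chr9:57520982-57521281, plus strand: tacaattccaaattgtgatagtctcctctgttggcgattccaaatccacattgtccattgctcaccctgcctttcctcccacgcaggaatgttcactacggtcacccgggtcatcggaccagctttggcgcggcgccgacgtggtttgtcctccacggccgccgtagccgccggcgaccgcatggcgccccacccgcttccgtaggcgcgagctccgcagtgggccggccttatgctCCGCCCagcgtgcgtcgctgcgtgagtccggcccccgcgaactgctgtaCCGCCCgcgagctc
The Ndufa11 window held 2 overlapping matches to the longer NRF1 letters, 1 on each strand, the Sdha window 2 matches to the shorter core, the Cox5a window 2 to the Sp1 letters and the Ndufc2 window none. Over all member windows the longer NRF1 letters were found in 13.3%, against 2.71% of all 32851 windows of that length, and the shorter core in 25.3% against 7.76%. The ETS letters were in 22.7% against 8.86%, the YY1 letters in 13.3% against 2.75% and the Sp1 letters in 38.7% against 35.7%. The NRF1 letters were set after matches to a longer form had been seen, so their shares are no independent support. Windows were not matched for their share of G and C bases. A match is a description of these letters and not a binding site.

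Neutrophil-like cells were not of the same make-up in the libraries. The immature cluster, led by the granule genes Ltf and Ngp, held 124 young and 2379 old cells, and cluster 2, led by Prok2, Wfdc17 and Retnlg, held 47 young and 4308 old. Only clusters 0, 1 and 6 held at least 200 cells of each library. Within them the nuclear sum had ratios of 0.960 (0.949 to 0.972), 1.08 (1.06 to 1.10) and 1.06 (1.04 to 1.08), and the mitochondrially encoded sum 2.20 (2.16 to 2.24), 2.20 (2.13 to 2.26) and 2.66 (2.60 to 2.71). The mean within these clusters was 0.044 log2 for the nuclear and 1.23 log2 for the mitochondrially encoded sum, against 0.028 and 1.79 over all neutrophil-like cells. The difference in mitochondrially encoded RNA was thus present within clusters and smaller than over the whole class. It was higher in the old library in all 7 neutrophil-like clusters.

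Counts of single nuclear members within clusters differed from those over the whole class, and the part of the make-up in this was not tested. In clusters 0, 1 and 6, 3 of 73, 4 of 74 and 8 of 74 measured nuclear members were counted higher, against 5.11%, 7.47% and 7.06% of all genes. The counts lower were 0, 2 and 3, against 8.05%, 8.98% and 26.6%. As the mean of the ratios within these clusters, 4 members were higher (Ndufa11, Ndufv3, Ndufc2 and Atp5g3) and 0 lower, against 4.34% and 10.1% of all genes. Relative to the median gene of each cluster, 4, 9 and 24 members were higher in clusters 0, 1 and 6, against 7.12%, 9.07% and 14.7% of all genes, so the excess seen over the whole class was not found in cluster 0. The counts lower were 0, 2 and 0, against 4.32%, 7.25% and 9.20%. Without the immature cluster, 5 were counted higher and 2 lower, against 5.63% and 41.6% of all genes, and the nuclear sum was at -0.057 log2 and the mitochondrially encoded sum at 1.65. Ndufa11 stood at 1.11, 1.48 and 2.43 log2 in clusters 0, 1 and 6. Sdha stood at -0.10, 0.01 and -0.39, so its lower level over the whole class was not found at that size within any of these clusters. The median of the 4 complex II members stood at -0.06, -0.06 and -0.34 log2 in them, against -0.30 over the whole class. In the old library the immature cluster had 51.4 CPM of Ndufa11 and 30.6 CPM of Sdha, and cluster 0 8.66 and 67.9 CPM.

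The plot of sums by cluster shows that the old immature cells had more of both kinds of member than old cells of cluster 0. Nuclear members took 7427 CPM in the immature cluster and 5914 CPM in cluster 0, and mitochondrially encoded members 9022 and 4636. Among complexes, nuclear complex I stood at 2367 against 1638 CPM, whereas complex II stood at 139 against 173. The young library had the same order for complex I, 2013 against 1719 CPM, and for complex II, 126 against 182.

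**Figure D2:**
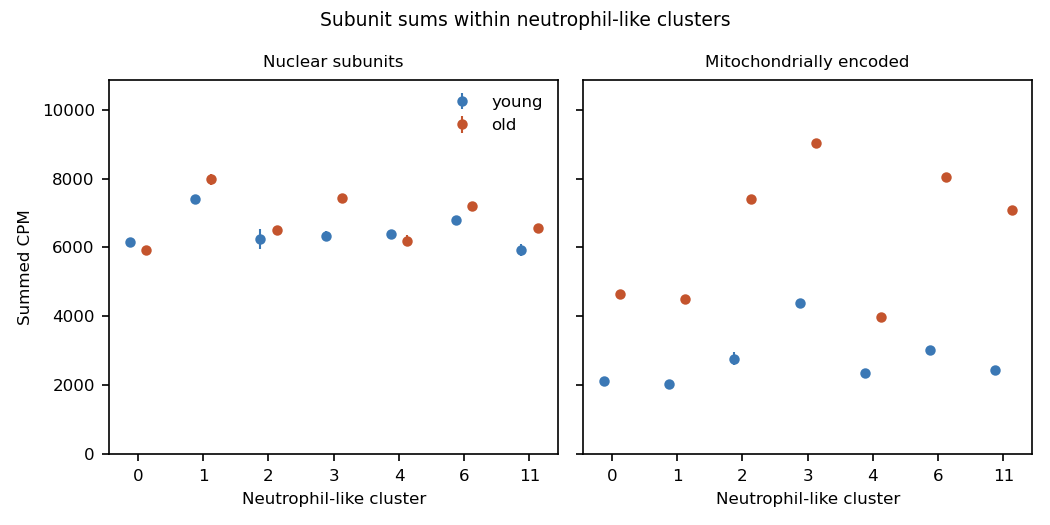
Summed CPM of the nuclear (left) and mitochondrially encoded (right) members (y axis) in each neutrophil-like cluster (x axis; 3 is the immature and 4 the interferon-stimulated cluster), with 95% Poisson intervals. Nuclear sums lie between 5914 and 7985 CPM in both libraries, and mitochondrially encoded sums between 2047 and 4378 young and between 3974 and 9022 old.

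Across cell classes, neutrophil-like cells had the lowest nuclear sum of all named classes but the erythroid cell-like one, in both libraries. The order in the young library ran from 1960 CPM in erythroid cell-like cells and 6763 in neutrophil-like cells over B cell-like (9910), non-classical monocyte-like (10630), platelet-like (11222), NK cell-like (13305) and T cell-like cells (14581) to dendritic cell-like (15303) and classical monocyte-like cells (15433). The last 2 did not differ beyond their counting intervals. Old classical monocyte-like cells stood at 18438 CPM, old neutrophil-like cells at 6895. The 56 neutrophil progenitor-like cells, found in the old library alone, had the highest nuclear sum, 20568 CPM. Of them 42 lay in a cluster led by Dmkn, Mpo and Elane and 14 in a cluster led by Fcnb and Camp. So 7 of 8 classes compared in both libraries stood above neutrophil-like cells. S100a8 and S100a9, which also fill the total, took between 0.699% and 2.23% in the 8 other classes of the young library and between 0.823% and 8.12% in the old.

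Mitochondrially encoded members separated the classes further. B cell-like cells had the highest sum, 36998 young and 51442 old CPM, and T cell-like cells came next with 34425 and 40331. The ratio of mitochondrially encoded to nuclear UMIs, which does not use the library total, was above that of neutrophil-like cells in all 8 classes and both libraries. It was 3.73 young and 4.99 old in B cell-like cells, 2.36 and 2.96 in T cell-like cells, 1.44 and 1.79 in classical monocyte-like cells, and 0.335 and 1.13 in neutrophil-like cells. Erythroid cell-like cells had 17.7 young and 33.2 old mitochondrially encoded UMIs per cell, near the 12.2 and 27.1 of the left-out barcodes.

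**Figure D3:**
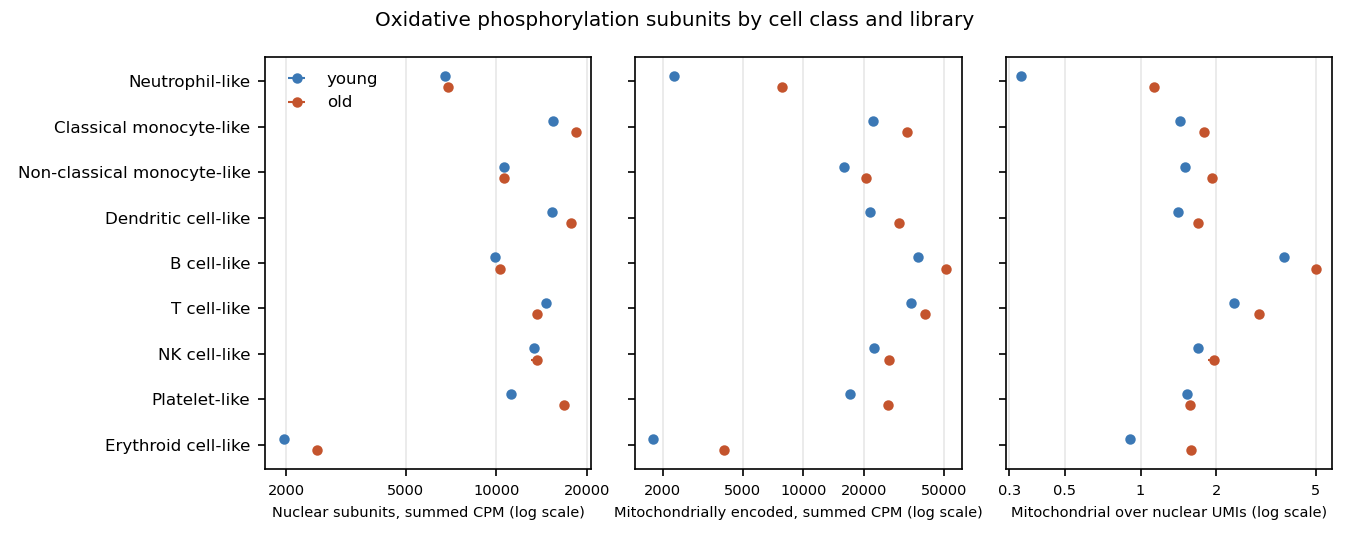
Summed CPM of nuclear members (left), of mitochondrially encoded members (middle) and the ratio of their UMIs (right), each on a log axis, by cell class and library, with 95% counting intervals. Neutrophil-like cells stand lowest but for erythroid cell-like cells in the nuclear sum, and lowest in the ratio, at 0.335 young and 1.13 old.

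Member by member, classical monocyte-like and dendritic cell-like cells had the largest shares of nuclear members counted above neutrophil-like cells. In classical monocyte-like cells 64 of 76 measured nuclear members were at least 1.5-fold above neutrophil-like cells in both libraries and 0 below, against 47.5% and 11.5% of all genes. The share was 64 of 78 in dendritic cell-like cells (48.5% of all genes), 56 of 76 in T cell-like cells (51.9%) and 56 of 76 in NK cell-like cells (50.3%). It was 44 of 76 in non-classical monocyte-like cells (48.3%) and 40 of 76 in B cell-like cells (50.3%), and the B cell-like share is near that of all genes. The median nuclear member stood at 1.47 young and 1.54 old log2 over neutrophil-like cells in classical monocyte-like cells (all genes 0.58 and 0.95) and at 1.48 and 1.52 in dendritic cell-like cells (0.67 and 1.13). In the old library it was not above the median of all genes in T cell-like (1.17 against 1.18), NK cell-like (1.15 against 1.22), non-classical monocyte-like (0.88 against 0.96) and B cell-like cells (0.76 against 1.15). In the young library it was above in these 4 classes, at 1.45 against 0.80, 1.21 against 0.82, 0.99 against 0.61 and 0.84 against 0.70. In platelet-like cells 28 of 75 were higher and 2 lower, against 20.7% and 49.9%. The median nuclear member there stood at 0.36 young and 0.90 old log2, against -1.16 and -0.78 over all genes. That distance from all genes was wider than in any other class. In erythroid cell-like cells, whose UMIs are mostly haemoglobin, 1 of 74 was higher and 70 were lower, against 1.42% and 95.9%.

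Members picked by their ratio, several of them in complex I, stood further above neutrophil-like cells than the sums did, which the picking itself favours. Ndufc2 stood at 155 young and 149 old CPM in classical monocyte-like cells and at 5.23 and 14.4 in neutrophil-like cells, which is 29.7-fold and 10.3-fold. Leading members were ranked on the log2 ratio with 1 CPM added, averaged over the libraries, among members at 10 CPM or more in the class. No floor was set for neutrophil-like cells, so a low level there favours a high rank. Ndufa5 led in 4 classes. It had 70.9 young and 69.4 old CPM in NK cell-like, 63.1 and 65.9 in T cell-like, 53.1 and 55.1 in B cell-like and 31.0 and 36.8 in non-classical monocyte-like cells, against 1.05 and 6.02 in neutrophil-like cells. Ndufa11 had between 68.7 and 145.9 young CPM in monocyte-like, dendritic cell-like and lymphocyte-like cells, against 4.73 in neutrophil-like cells. In the old library the distance was smaller, with 87.3 to 132.6 CPM against 33.0, and in non-classical monocyte-like cells it was 19.6-fold young and 3.03-fold old. Old neutrophil progenitor-like cells had 171 CPM of Ndufc2, 120 of Ndufa5 and 157 of Ndufa11. In contrast, Ndufb9 had 194 young and 167 old CPM in neutrophil-like cells and 194 and 226 in classical monocyte-like cells. So a low level in neutrophil-like cells was not shared by all subunits of complex I.

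**Figure D4:**
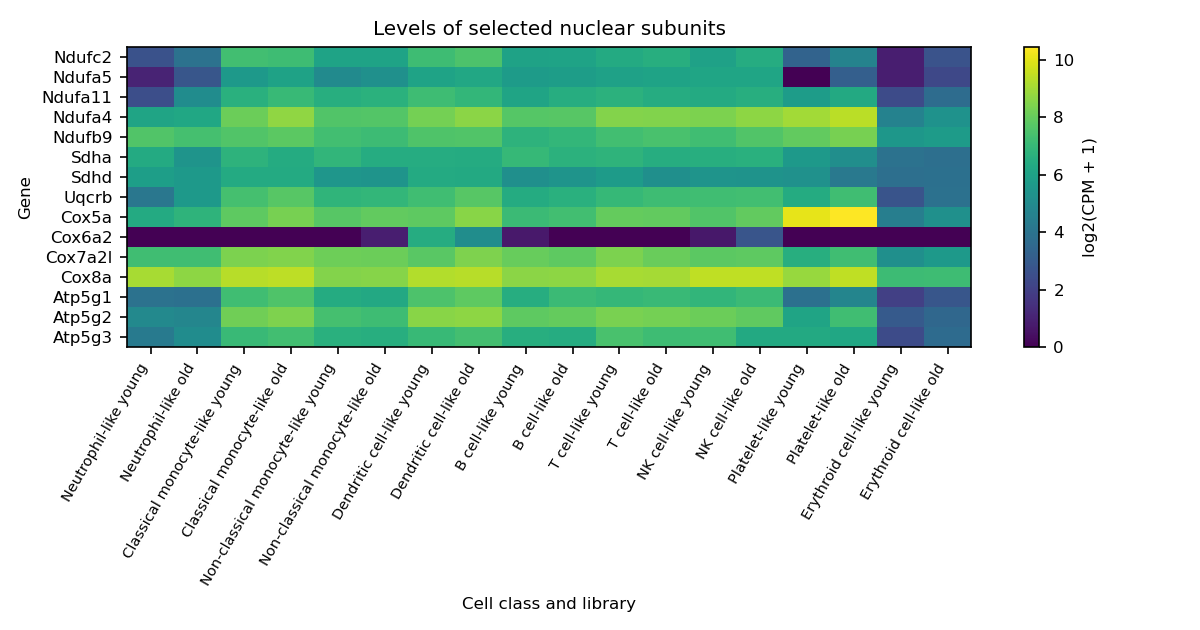
Levels of selected nuclear members (rows) as log2 of CPM plus 1 (colour) in each cell class and library (columns). Ndufc2, Ndufa5 and Ndufa11 are dark in neutrophil-like, platelet-like or erythroid cell-like columns, Cox5a is brightest in platelet-like cells (1082 young and 1404 old CPM), and Cox6a2 is seen in dendritic cell-like cells.

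Platelet-like cells carried a makeup of their own. Cox5a, a nuclear subunit of complex IV, stood at 1082 young CPM (476 UMIs) and 1404 old CPM (1249 UMIs), 12.9-fold and 12.7-fold above neutrophil-like cells and above every other class. Ndufa4 stood at 511 and 668 CPM. Nuclear complex IV as a whole was 2.00-fold and 3.04-fold above neutrophil-like cells, while complex II was below them, at 0.629-fold and 0.663-fold. Ndufs1 stood below them in both libraries, at 13.6 and 10.1 CPM against 35.6 and 22.6. Platelet-like cells had medians of only 830 and 855 UMIs.

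In dendritic cell-like cells the leading member was Cox6a2, the isoform of subunit 6a known from heart and skeletal muscle. It had 31 young and 32 old UMIs, or 88.7 (60.2 to 125.8) and 33.8 CPM (23.1 to 47.7), but these came from 2 of 22 young and 7 of 55 old cells. Neutrophil-like cells had 1 and 0 UMIs in 10794 and 9563 cells. The common isoform Cox6a1 had 160 and 201 CPM in dendritic cell-like cells and 94.2 and 80.4 in neutrophil-like cells.

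The other tissue-restricted isoforms were at or near 0. Cox8b, Cox8c and Ndufa4l2 had 0 UMIs in neutrophil-like cells of both libraries, which allows up to 0.0615 young and 0.0367 old CPM. Cox7b2 had 0 young and 3 old UMIs, Cox4i2 0 and 10, Cox7a1 4 and 31 and Cox6b2 21 and 49. The ubiquitous partners Cox4i1, Cox6b1, Cox7a2, Cox7b and Cox8a carried these families. Cox7a2l, which helps assemble supercomplexes, had 153 young and 151 old CPM, and Cox7a2 154 and 159.

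The genes Atp5g1, Atp5g2 and Atp5g3 encode the same mature c subunit of the ATP synthase rotor. In neutrophil-like cells Atp5g2 gave 47.3% young and 36.7% old of the family's UMIs, and Atp5g3 29.97% and 45.0%. Atp5g2 had 29.5 young and 27.1 old CPM there, 232 and 250 in B cell-like cells, 326 and 306 in T cell-like cells and 291 and 346 in classical monocyte-like cells. Atp5g1 had 14.2 and 13.5 CPM in neutrophil-like cells and 153 and 188 in classical monocyte-like cells. All 3 rotor genes stood lower in neutrophil-like cells than in monocyte-like, dendritic cell-like and lymphocyte-like cells of the same library. Atp5g2 has a near-identical copy and is uncertain.

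The shares of some mitochondrially encoded transcripts fell into a pair of patterns across classes, as the plot of transcript shares shows. mt-Co1 gave 30.1% young and 37.3% old in neutrophil-like cells, 30.1% and 37.6% in platelet-like cells and 41.6% and 40.5% in erythroid cell-like cells. In the other 6 classes it lay between 14.96% and 20.4%. mt-Nd1 showed the reverse, with 2.18% and 1.60% in neutrophil-like cells, 1.78% and 1.68% in platelet-like cells and 1.33% and 1.39% in erythroid cell-like cells, against 4.98% to 6.10% in the other classes. mt-Nd2 followed mt-Nd1, at 1.92% and 0.860% in neutrophil-like cells and between 3.17% and 5.61% in those 6 classes. In neutrophil-like cells the share of mt-Co1 was higher in the old library and that of mt-Cytb lower, 6.98% young and 4.85% old. Not every transcript followed the split. mt-Nd4 gave 6.39% and 3.55% in neutrophil-like and 7.09% and 5.16% in platelet-like cells, against 5.08% to 6.04% in those 6 classes. mt-Cytb gave 9.32% and 7.64% in platelet-like cells, within the 7.32% to 10.8% of those 6 classes.

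**Figure D5:**
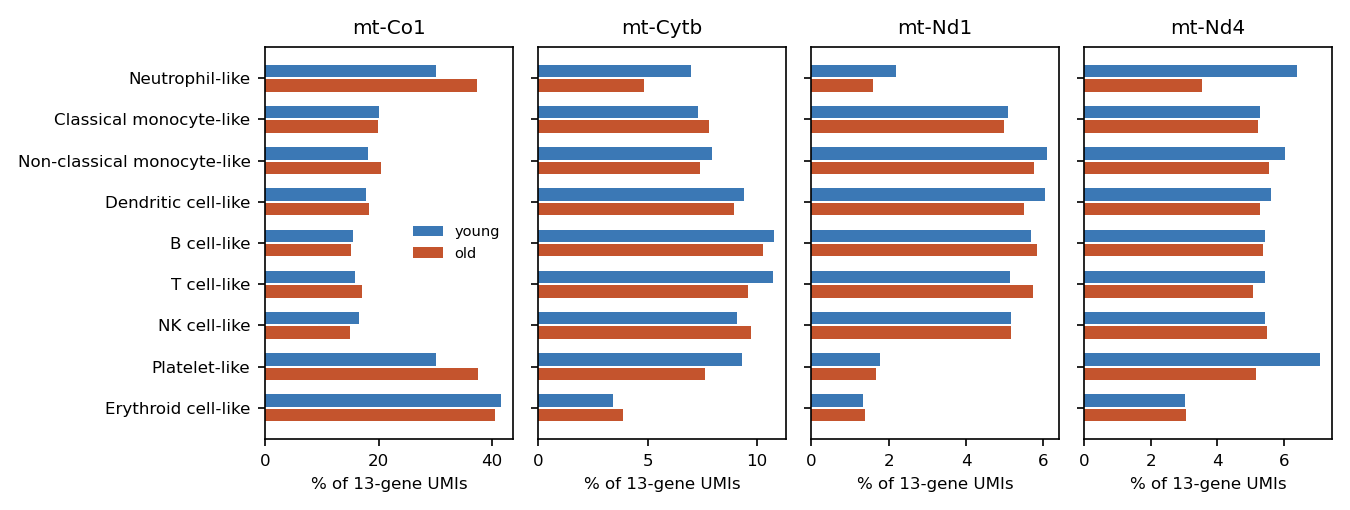
Share of the UMIs of the 13 mitochondrially encoded members (x axis, percent) that came from mt-Co1, mt-Cytb, mt-Nd1 and mt-Nd4, by cell class (y axis) and library. Neutrophil-like, platelet-like and erythroid cell-like cells have long mt-Co1 bars (30.1% to 41.6%) and short mt-Nd1 bars (1.33% to 2.18%). The mt-Cytb and mt-Nd4 bars do not split the classes this way.

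Mitochondrially encoded RNA was also compared between the ages outside neutrophil-like cells. Its sum was higher in the old library in all 8 other classes, with ratios of 1.17 (1.16 to 1.18) in T cell-like, 1.18 (1.15 to 1.22) in NK cell-like, 1.28 (1.27 to 1.29) in non-classical monocyte-like, 1.39 (1.38 to 1.40) in B cell-like, 1.39 (1.36 to 1.43) in dendritic cell-like and 1.49 (1.47 to 1.4997) in classical monocyte-like cells. Platelet-like cells had 1.54 (1.51 to 1.59) and erythroid cell-like cells 2.25 (2.18 to 2.33), which is not below the 2.20 within neutrophil-like clusters 0 and 1. Neutrophil markers in these classes moved as well. They summed to between 8482 and 26642 CPM in the young library and between 10416 and 89598 CPM in the old, and were higher in the old library in every class but the NK cell-like one (16018 and 10416). In erythroid cell-like cells they stood at 26642 and 83206 CPM, in T cell-like cells at 8530 and 49290. Their part in the ratios was not tested. Whether these ratios differ from that of neutrophil-like cells, 3.45, could not be tested with 1 library per age.

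The nuclear sum was higher in the old library in platelet-like cells, with a ratio of 1.496 (1.45 to 1.54), in erythroid cell-like cells, 1.30 (1.25 to 1.34), in classical monocyte-like cells, 1.19 (1.18 to 1.21), in dendritic cell-like cells, 1.16 (1.13 to 1.197), and in B cell-like cells, 1.04 (1.02 to 1.06). Thinned to 1000 UMIs per cell, nuclear members took 1.54% young and 1.89% old in classical monocyte-like cells. The gap was smaller in erythroid cell-like cells, at 0.194% and 0.213% against 0.196% and 0.254% unthinned, and their middle cell had 0.148% young and 0.144% old. It was not seen in dendritic cell-like cells, at 1.741% and 1.744%, and was turned in B cell-like cells, at 1.04% and 1.02%. In platelet-like cells 37 of 75 measured nuclear members were counted higher and 3 lower, against 19.2% and 31.2% of all genes. Thinned to 1000 UMIs per cell, with 214 young and 360 old shallower cells left out, nuclear members took 1.10% young and 1.83% old of platelet-like UMIs, against 1.12% and 1.68% unthinned. In these cells erythroid markers stood at 8811 young and 28363 old CPM, neutrophil markers at 13846 and 41786 CPM, and cytosolic ribosomal protein genes at 1.63% and 3.74%. Their part was not tested. Most young classical monocyte-like cells lay in cluster 5.1 and most old ones in cluster 5.0. Within cluster 5.1 the nuclear ratio was 1.09 (1.08 to 1.11).

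Genes that serve the complexes were described from lists drawn up for this comparison, in neutrophil-like cells. Beside the counts below stand the 7.24% of all measured genes counted higher and the 50.1% counted lower. Of 22 measured assembly factors 0 were counted higher and 4 lower, with a median of -0.34 log2 against -0.59 over all genes. Atpaf1, which assembles the catalytic head of ATP synthase, had 12.2 young and 1.27 old CPM, and Cox17, a copper chaperone of complex IV, 256.9 and 144.3. Of 40 mitochondrial ribosomal protein genes 3 were higher and 6 lower, among them Mrps28 (112.3 and 26.8 CPM) and Mrps15 (102.8 and 32.7). The largest ratio of that list was that of Mrps14 (13.3 and 23.7 CPM). Relative to the median gene, 17 of the 40 were higher and 2 lower, against 23.2% and 12.0% of all genes. Of the 22 assembly factors 5 were higher and 1 lower by that measure. Of 9 genes that maintain and read mitochondrial DNA 2 were higher and 4 lower. Hsd17b10, a part of mitochondrial RNase P, had 6.68 and 21.7 CPM, and Polg2, the accessory subunit of the mitochondrial DNA polymerase, 27.7 and 10.8.

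Of 7 measured regulators of nuclear subunit genes 0 were higher and 4 lower, against 7.24% and 50.1% of all genes. Nrf1 had 130.1 young and 64.6 old CPM and Gabpb1 63.9 and 31.1, at -0.33 and -0.35 log2 relative to the median gene. Of 13 genes of the citric acid cycle, which feeds complexes I and II, 0 were higher and 3 lower, led by Ogdh with 91.2 and 53.2 CPM. Among subunits and carriers that the symbol rule does not cover, Cyc1, the cytochrome c1 of complex III, had 6.35 and 14.8 CPM. Ucp2, an inner membrane carrier, had 594.8 and 375.4 CPM. Of 7 such subunits and carriers 1 was higher and 1 lower, and of 8 genes for uncoupling and oxygen adaptation 0 and 1. Of 92 cytosolic ribosomal protein genes 8 were higher and 10 lower. In each of these lists but the regulators, the share counted lower was under the 50.1% of all measured genes.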

How the data were processed

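The deposited values are raw UMI counts per gene and cell barcode, which the authors did not normalize. Per the file headers they were made with Cell Ranger 7.2.0, and per the submitters' processing notes on build mm10. The annotation release and the cell calling are not given in the sources used here. The members and gene lists were chosen with earlier results of these data known. Barcodes under 200 genes or over 20% mitochondrial UMIs were removed. That limit uses members, since all listed mitochondrial genes are members, and it removed 29 young and 46 old barcodes. Cells were clustered with scanpy 1.11.5 and leidenalg 0.10.2 at resolution 0.6, from 15 neighbours in 30 principal components of 2000 variable genes per library, without the members. The classical monocyte cluster was split at resolution 0.2. Clusters were named from 16 marker lists with at least 3 markers detected, and a cluster led by metallothionein genes (85 young, 420 old cells) stayed unnamed; the naming limits and the split were set after the data were seen. No doublet caller was run; an alternative instead leaves out the 442 young and 704 old neutrophil-like cells in which markers of other types took 0.5% of UMIs or more. Sums are per class and library. Counted members used log2 ratios after adding 1 CPM to each library, at a floor of 5 CPM, and intervals are exact Poisson or Clopper-Pearson at the 95% level. Simulated counts with counting error alone were used to test the ratio step. They held no variation between libraries, so they cannot show whether a ratio would repeat in other libraries. Members were matched to GENCODE and promoters to RefSeq. The NRF1 letters were shortened after matches to a longer form had been seen; the other motifs were not changed. The text names all mitochondrially encoded members, the 3 nuclear members of each complex with the highest level, those with the largest and smallest ratio at 10 CPM or more, complex II, the isoform families and the leading member of each class; Ndufv3, Ndufa5, Ndufa11 across classes, Atp5d and the 5 further complex I members counted higher were named after their values were seen.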

Additional observations from a re-analysis of the deposited data

Results flagged for a closer look

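The summed nuclear level was lower in the old library in T cell-like cells, with a ratio of 0.933 (0.918 to 0.949), while in 6 of the 9 classes it was higher beyond the counting interval. The difference between classes was not tested. Thinned to 1000 UMIs per cell, nuclear members took 1.38% young and 1.37% old of T cell-like UMIs, which is a smaller gap. Among the classes with a higher sum, thinning left 1.741% young and 1.744% old in dendritic cell-like cells. It turned the difference in B cell-like (1.04% and 1.02%) and neutrophil-like cells (0.690% and 0.677%).

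Among barcodes outside the comparisons, the 801 old ones under the gene minimum held 27.1 mitochondrially encoded UMIs each, against 12.2 in the 660 young ones. The 46 old barcodes over the mitochondrial limit had 58.8% of their UMIs from mitochondrially encoded members, and the 29 young ones 48.1%. Nuclear members took 0.208% and 0.313% there.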

How the results depend on the processing

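In neutrophil-like cells the mitochondrially encoded sum stayed higher in the old library under every alternative run, between 1.23 and 2.45 log2, and so did its ratio to the nuclear sum, between 1.18 and 1.79. The nuclear sum lay between -0.057 and 0.69 and changed sign under 3 alternatives. For the nuclear sum, the mitochondrially encoded sum and the ratio, in that order, resolution 0.3 gave 0.038, 1.81 and 1.78, thinning to 1000 UMIs -0.028, 1.70 and 1.73, the mean within shared clusters 0.044, 1.23 and 1.18, and leaving out the immature cluster, chosen after seeing the data, -0.057, 1.65 and 1.71. For both sums, equal weight per cell gave -0.038 and 1.73, a total without S100a8 and S100a9 0.36 and 2.12, and centring on the median gene 0.69 and 2.45. The stricter filter, 500 genes and 10% mitochondrial UMIs, gave 1.79 for the mitochondrially encoded sum. Leaving out cells with UMIs of other types gave 1.81 for that sum and 1.79 for the ratio.

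The nuclear members counted, 12 higher and 3 lower, became 6 and 1 with equal weight per cell, 28 and 1 without S100a8 and S100a9 in the total, 50 and 0 centred on the median gene, 4 and 0 within shared clusters, and 4 and 0 at a fold of 2. A floor of 20 CPM gave 6 higher, and leaving out the immature cluster 5 higher. All genes gave 23.2% higher and 12.0% lower when centred, 4.34% and 10.1% within shared clusters, and 5.63% and 41.6% without the immature cluster. For the other settings the share over all genes was not computed, so those counts do not set the members apart from other genes. Leaving both S100 genes out of the total moved the ratios of all other genes up as well. Centred on the median gene, Ndufa7 (0.071) and Ndufs1 (0.035) were on the other side of 0. Of 35 named genes, 13 changed direction under that centring, 8 without both S100 genes and 5 within shared clusters. The cause was not tested. Of 8 classes, 7 stood above neutrophil-like cells in the nuclear sum and 8 in the ratio; where 7 or 6 classes could be compared, 6 or 5 and 7 or 6 did. No paired analysis was possible because there is 1 library per age. Depth limits the dendritic cell-like (22 young) and NK cell-like (26 old) values most.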
